A study of Mus musculus with 8 samples.

Results

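The caspases and apoptosome genes described here are Casp2, Casp6, Casp8, Casp9, Apaf1, Cycs, Diablo, Xiap and Birc5, 9 genes found by symbol among the 55487 genes of the deposited count table. RNA was sequenced from mouse embryos at the 2-cell stage, in 8 libraries of 5 pooled embryos each. The 4 knockdown-labelled samples came from zygotes injected with CasRX, an RNA-guided nuclease that cuts RNA, together with a guide RNA against Polq, which encodes DNA polymerase theta. The 4 control samples came from zygotes injected with CasRX, and the labels name no guide for them. In both groups injection took place 20 h after the hormone hCG was given, and RNA was extracted 10 h after injection. The labels give the genotype as WT for the controls and as Polq knockdown for the other group. The sources used here give neither strain nor parental age. The labels call the 4 samples of a group biological replicates, and because each sample is a pool, differences between single embryos cannot be seen.

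Caspases are proteases that are made as inactive precursors and cut their targets after aspartate. Caspase-2, caspase-8 and caspase-9 are initiators, which are activated on protein platforms, and caspase-6 is an executioner, which initiators or other executioners cut. In the mitochondrial pathway cytochrome c, the product of Cycs, leaves the mitochondrion and binds Apaf1, which assembles into the apoptosome and recruits caspase-9. Xiap binds and blocks caspases, and Diablo (Smac), released together with cytochrome c, binds Xiap and relieves that block. Birc5 (survivin) carries the same kind of domain as Xiap but is best known as a subunit of the chromosomal passenger complex, which corrects chromosome attachment and acts in cytokinesis. In the early embryo these RNAs are partly inherited from the oocyte, and cytochrome c also serves respiration in living cells.

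What the 4 caspases share is the run of codons for the active site, a glutamine, an alanine, the catalytic cysteine, any residue and a glycine. It is shown because it holds the codon of the catalytic cysteine, TGT in Casp2 and Casp6 and TGC in Casp8 and Casp9. The sequences are coding stretches of the principal transcript in the GENCODE M21 annotation (GRCm38), all on plus-strand genes, with the 15 active-site bases in capitals.
Casp2: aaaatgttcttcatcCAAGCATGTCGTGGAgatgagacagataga
Casp6: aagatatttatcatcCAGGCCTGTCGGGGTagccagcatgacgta
Casp8: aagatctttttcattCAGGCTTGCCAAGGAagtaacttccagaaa
Casp9: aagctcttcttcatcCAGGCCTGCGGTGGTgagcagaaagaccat
The Casp8 stretch lies within exon 8 at chr1:58844598-58844642. The other stretches span a splice junction, that of Casp2 between exons 8 and 9 (chr6:42276755-42279790), that of Casp6 between exons 5 and 6 (chr3:129910681-129912144) and that of Casp9 between exons 6 and 7 (chr4:141807232-141811552). An in-frame match to these codons was found in 84 of 21877 protein-coding genes of the annotation (0.384%), most of which are not caspases. Diablo carries the codons of its IAP-binding residues, which are exposed at the start of the mature protein once the mitochondrial leader has been removed. The stretch is shown with these 12 bases in capitals (minus strand, chr5:123520164-123523287, exons 2 and 3, codon 54 of 237).
Diablo: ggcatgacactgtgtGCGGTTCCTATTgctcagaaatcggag
That codon run was found in 94 of the 21877 genes (0.43%).

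Library totals were 4726159 to 33650050 counts in the knockdown-labelled libraries and 33311665 to 43748621 counts in the controls. Of the knockdown-labelled libraries, replicates 1, 2 and 3 were each under 10000000 counts, so low genes are measured less exactly there. Levels are counts per 1000000 (CPM) with library sizes scaled by edgeR's TMM method, and the groups were compared with edgeR's quasi-likelihood test over all genes. Polq, the targeted gene, was at 16.9, 38.9, 29.2 and 41.1 CPM in knockdown-labelled replicates 1 to 4 and at 34.6, 49.7, 40.1 and 32.7 CPM in control replicates 1 to 4. The groups overlapped in Polq (log2 fold change −0.32, SE 0.34, adjusted p = 1.0), and libraries are therefore named by their label. Of the 10 oocyte and 2-cell markers examined 9 had enough counts to be tested, while Duxf3 was at 0 in all libraries but 1 control. The list summed to 4141 to 6710 CPM in the knockdown-labelled libraries and 3694 to 6714 CPM in the controls, mostly from Oosp1. Oosp1 alone was at 3443 to 5338 CPM in the knockdown-labelled libraries and 3036 to 5371 CPM in the controls. Of 8 cumulus and granulosa markers 5 were at 0 in every library, Fshr and Foxl2 among them, and the list summed to 0.793 to 10.7 CPM in the knockdown-labelled libraries and 0 to 21.5 CPM in the controls. Of 6 sperm markers all but Prm2 were at 0 in every library, and the 6 blood and immune markers summed to 11.4 to 12.9 CPM in the knockdown-labelled libraries and 4.0 to 16.2 CPM in the controls, mostly from Hba-a1 and Hba-a2. The part of these markers in the results was not tested.

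None of the caspase and apoptosome genes passed the test between the groups. Of the 9 genes 8 had enough counts to be tested and 0 were called at an adjusted p under 0.05, where 0 of all 13146 genes tested (0%) were called. At an unadjusted p under 0.05 there were 0 of the 8, against 2.81% of all genes tested. In none of the 9 did the 4 knockdown-labelled libraries lie on one side of the 4 controls, which 2.98% of all genes tested did. DESeq2 called 20 genes in the same counts (0.154%) and 0 of the 8. All 8 log2 fold changes, knockdown-labelled minus control, were negative, from −0.81 for Casp6 to −0.02 for Apaf1, with a median of −0.30. Of all genes tested 53.4% were negative, with a median of −0.05. The 95% interval of each of the 8 included no change. In bulk RNA from pooled embryos, fewer cells carrying an RNA and less of it per cell cannot be told apart.

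**Figure D1:**
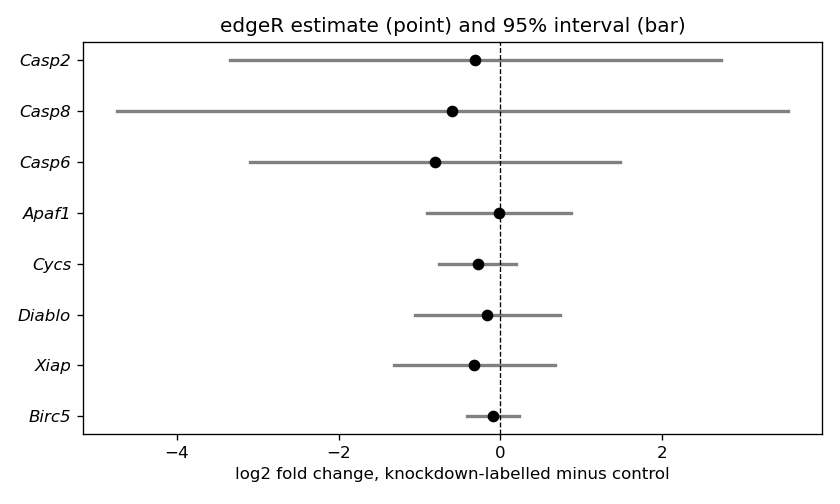
Estimated log2 fold change (knockdown-labelled minus control) of the 8 genes tested, with the 95% interval from edgeR as a bar; the dashed line marks no change. Every bar crosses the line; that of Birc5 is the narrowest (−0.41 to 0.23) and that of Casp8 the widest (−4.75 to 3.56).

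Birc5 and Cycs supplied most of the reads of these genes. Together they made up 81.0% to 89.0% of the summed CPM of the 9 genes in the knockdown-labelled libraries and 84.2% to 88.1% in the controls. The sum itself was 804 to 1031 CPM in the knockdown-labelled libraries and 918 to 1167 CPM in the controls. The 4 caspases together gave 23.8, 8.38, 15.3 and 28.1 CPM in knockdown-labelled replicates 1 to 4, and 14.8, 33.9, 35.2 and 34.4 CPM in control replicates 1 to 4.

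**Figure D2:**
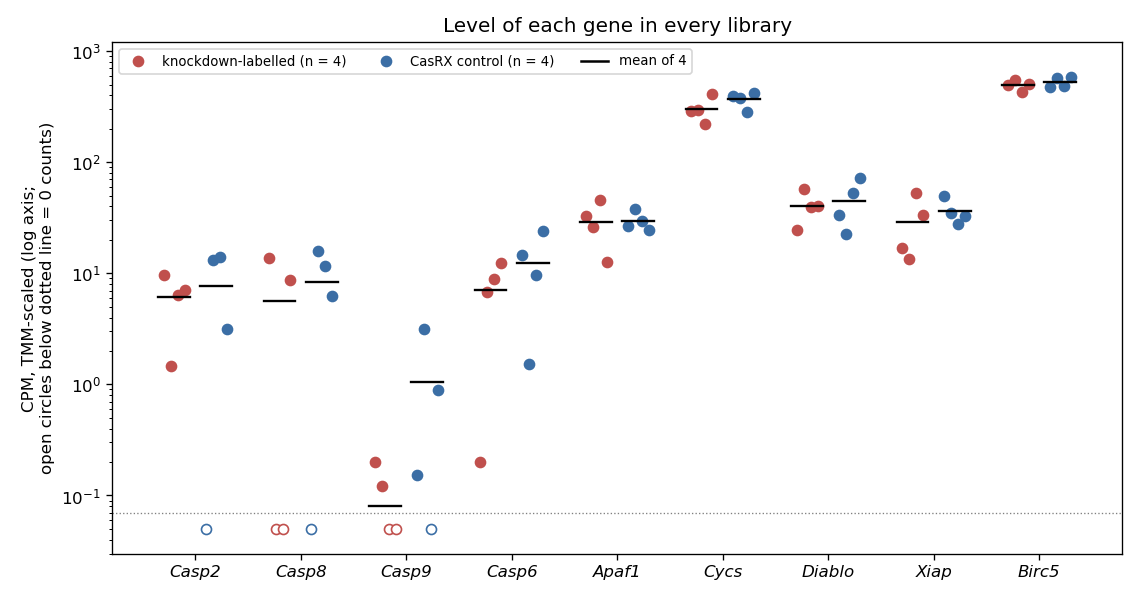
Level of each of the 9 genes in every library, in TMM-scaled CPM on a log axis, knockdown-labelled left of CasRX control; points are libraries in replicate order, lines are means of 4, and open circles are libraries with 0 counts. Birc5 and Cycs lie at 219 to 581 CPM, while Casp2, Casp8 and Casp9 each hold libraries at 0.

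Per kilobase of annotated exon, the order of the levels averaged over the 8 libraries was Birc5, Cycs, Diablo, Xiap, Apaf1, Casp8, Casp6, Casp2 and Casp9. Birc5 was at 146 ± 14.3 CPM per kb in the knockdown-labelled libraries and 156 ± 16.7 CPM per kb in the controls (SD, n = 4 each). Cycs was at 89.1 ± 23.1 CPM per kb in the knockdown-labelled libraries and 108 ± 17.6 CPM per kb in the controls. Birc5 lay above Cycs in 8 of 8 libraries and Cycs above Diablo in 8 of 8, and the ranges of these neighbours did not overlap. Below Cycs the order is loose. Diablo averaged 6.95 CPM per kb over all libraries and lay above Xiap (3.46 CPM per kb) in 7 of 8 libraries, and Casp2 (0.976 CPM per kb) lay above Casp9 (0.109 CPM per kb) in 7 of 8. Xiap and Apaf1, Apaf1 and Casp8, and Casp8 and Casp6 each exchanged places in 4 of 8 libraries, and Casp6 lay above Casp2 in 5 of 8, so that these neighbours do not differ beyond their spread. The lengths are unions of all annotated exons. With the length of the principal transcript instead, Casp6 averaged 6.71 CPM per kb, above Xiap at 4.80 and Apaf1 at 4.47 CPM per kb, and Birc5 averaged 542 CPM per kb.

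Each of the initiator caspases was at 0 in at least 1 library. Casp8 and Casp9 were at 0 in libraries of both groups, and Casp2 in control replicate 1 alone. Casp2, whose product is activated on the PIDDosome and is known for promoting the death of mouse oocytes, had 49, 12, 55 and 226 counts in knockdown-labelled replicates 1 to 4, which is 9.72, 1.46, 6.36 and 7.08 CPM. In control replicates 1 to 4 it had 0, 422, 614 and 136 counts, which is 0, 13.3, 14.0 and 3.17 CPM. The lowest and the highest library were thus both controls. The estimate was a log2 fold change of −0.31 (SE 1.36, adjusted p = 1.0), with an interval from 0.0983 to 6.61 times the control level, and limma-voom gave the opposite sign (1.47).

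Casp8, which death receptors activate through the adaptor Fadd, had 69, 0, 0 and 278 counts in knockdown-labelled replicates 1 to 4, which is 13.7, 0, 0 and 8.71 CPM. It had 0, 505, 505 and 268 counts in control replicates 1 to 4, which is 0, 15.9, 11.6 and 6.24 CPM. The RNA was therefore either at 0 or at more than 6 CPM in every library of both groups. A count of 0 allows up to 0.364 and 0.347 CPM in knockdown-labelled replicates 2 and 3 and up to 0.0917 CPM in control replicate 1 (3 counts of the scaled library, for counting error only). The log2 fold change was −0.59 (SE 1.86, adjusted p = 1.0), and the interval ran from 0.0372 to 11.8 times the control level. With knockdown-labelled replicate 4 as the only library of its group it was 0.06. Leaving out knockdown-labelled replicate 1 gave −1.51, and leaving out control replicate 2 gave −0.08.

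Casp9, the caspase of the apoptosome, was too low to be tested. It had 1, 1, 0 and 0 counts in knockdown-labelled replicates 1 to 4 and 5, 101, 0 and 38 counts in control replicates 1 to 4. Control replicates 2 and 4, at 3.18 and 0.884 CPM, held nearly all of its reads. A count of 0 allows up to 0.347 and 0.0940 CPM in knockdown-labelled replicates 3 and 4 and up to 0.0686 CPM in control replicate 3. The group ranges overlap, since control replicates 1 and 3, at 0.153 and 0 CPM, were as low as the knockdown-labelled libraries. The gene span of Casp9 overlaps Cela2a and Ctrc on the other strand. Whether their exons overlap was not examined, and the sources used here do not say whether strand was used in counting. Whether reads of these genes were counted for Casp9 was not tested.

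Casp6, the executioner known for cutting nuclear lamin A, had 1, 56, 77 and 393 counts in knockdown-labelled replicates 1 to 4, which is 0.198, 6.80, 8.90 and 12.3 CPM. It had 478, 48, 422 and 1036 counts in control replicates 1 to 4, which is 14.6, 1.51, 9.65 and 24.1 CPM. Control replicate 2 lay below 3 of the 4 knockdown-labelled libraries. The log2 fold change of −0.81 (SE 1.02, adjusted p = 1.0) was the largest in size of the 8, with an interval from 0.117 to 2.78 times the control level. Without control replicate 4 it was −0.28 and without knockdown-labelled replicate 4 it was −1.23.

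Casp2 and Casp8 were both at 0 in control replicate 1 and both at the lowest level of their group in knockdown-labelled replicate 2. Both were highest of the controls in replicates 2 and 3. They parted in knockdown-labelled replicate 3, where Casp8 was also at 0 and Casp2 was at 6.36 CPM. Casp6 followed another order. It was nearly absent from knockdown-labelled replicate 1, where Casp2 and Casp8 were at the highest level of their group. Control replicate 1 lacked Casp2 and Casp8 and had the next-to-highest Casp6 level of the controls. The number of the 4 caspases at 0 was 0, 1, 2 and 1 in knockdown-labelled replicates 1 to 4 and 2, 0, 1 and 0 in control replicates 1 to 4. Control replicates 1 and 3, with 2 and 1 caspases at 0, held 33311665 and 43748621 counts.

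Libraries at 0 were set against other genes of like level. Tested genes with a mean within 1.5 times that of Casp2 numbered 2378, of which 27.6% had at least 1 library at 0 and 14.9% had a control library at 0. Casp2 had 1 such library. Casp8 had 3 libraries at 0, and 1.34% of the 2381 tested genes of like level had 3 or more. These shares cover only genes that passed the filter on low counts, which removes genes with reads in few libraries. The coefficient of variation (CV, SD over mean) of Casp8 was 121% in the knockdown-labelled libraries, where genes of like level had a median of 68.7%, and 81.5% in the controls, where their median was 68.2%. That of Casp2 was 56.0% in the knockdown-labelled libraries and 93.1% in the controls. Genes of its level had medians of 69.2% in the knockdown-labelled libraries and 68.9% in the controls. The CV of Casp6 was 72.4% in the knockdown-labelled libraries and 75.8% in the controls. For genes of its level the medians were 58.8% in the knockdown-labelled libraries and 60.7% in the controls.

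**Figure D3:**
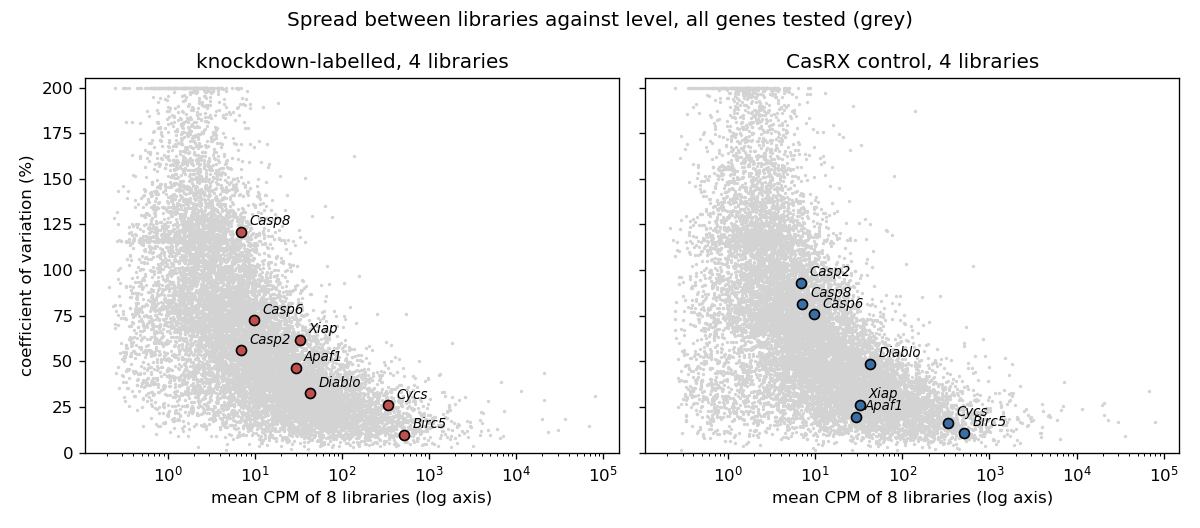
Coefficient of variation between the 4 libraries of a group (percent) against mean CPM of 8 libraries on a log axis, for knockdown-labelled (left) and CasRX control libraries (right); grey points are all genes tested and coloured points the 8 genes. The spread falls with the level, and the 3 tested caspases stand at 56.0% to 121% in the knockdown-labelled libraries and 75.8% to 93.1% in the controls, while Birc5 stands at 9.77% in the knockdown-labelled libraries and 10.7% in the controls.

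The apoptosome scaffold and its ligand were present in every library. Apaf1 was at 33.1, 26.0, 45.3 and 12.7 CPM in knockdown-labelled replicates 1 to 4 and at 26.7, 37.8, 29.3 and 24.5 CPM in control replicates 1 to 4. The knockdown-labelled libraries spread wider (CV 46.6%) than the controls (CV 19.6%) and held both the highest and the lowest value. The means were 29.3 ± 13.6 CPM in the knockdown-labelled libraries and 29.6 ± 5.80 CPM in the controls (SD, n = 4 each), a log2 fold change of −0.02 (SE 0.40, adjusted p = 1.0) with an interval from 0.534 to 1.83 times the control level. The sign of this value changed with the scaling, to 0.06 with library totals alone and 0.01 when scaled by DESeq2. It was −0.50 with limma-voom and −1.21 with knockdown-labelled replicate 4, the lowest library, as the only one of its group.

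Cycs was at 290 CPM in knockdown-labelled replicate 1 and at 295, 219 and 409 CPM in replicates 2 to 4. It was at 394, 377, 284 and 422 CPM in control replicates 1 to 4. Knockdown-labelled replicates 1 to 3 lay close to or below the lowest control, replicate 3, and replicate 4 lay among the higher controls. The log2 fold change was −0.28 (SE 0.21, adjusted p = 1.0), and the interval ran from 0.59 to 1.14 times the control level, so that a fall below 0.59 lay outside it. Cycs had the smallest unadjusted p of the 8 genes (0.216). With knockdown-labelled replicate 4, the deepest of its group, as the only library of that group the log2 fold change was 0.16. Processed pseudogenes of Cycs are known in the mouse genome. The deposited Cycs counts were whole numbers in all 8 libraries, which does not show whether pseudogene reads were counted with it. This was not tested.

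Diablo and Xiap, which act against each other, were detected in every library. Diablo was at 24.8, 56.9, 39.8 and 40.4 CPM in knockdown-labelled replicates 1 to 4 and at 33.3, 22.6, 52.6 and 72.5 CPM in control replicates 1 to 4. The knockdown-labelled values lay inside the range of the controls (log2 fold change −0.16, SE 0.40, adjusted p = 1.0, interval 0.481 to 1.67 times the control level). Without control replicate 4 the value was 0.16. The deposited Diablo counts were fractional in all 8 libraries, so that reads were shared with another annotated gene by estimation, and its span overlaps 5 annotated genes, 3 of them on the other strand.

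Xiap was at 16.9, 13.4, 52.6 and 33.6 CPM in knockdown-labelled replicates 1 to 4 and at 50.05, 35.0, 27.8 and 33.0 CPM in control replicates 1 to 4. Knockdown-labelled replicates 1 and 2 lay below all 4 controls and replicate 3 above them. The log2 fold change was −0.32 (SE 0.45, adjusted p = 1.0), and the interval ran from 0.40 to 1.60 times the control level. It was −0.77 without knockdown-labelled replicate 3 and −0.08 without replicate 2.

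Ratios taken within a library do not depend on how libraries are scaled. The log2 ratio of Diablo to Xiap counts was 0.55, 2.08, −0.40 and 0.26 in knockdown-labelled replicates 1 to 4 and −0.59, −0.63, 0.92 and 1.13 in control replicates 1 to 4. The means were 0.62 ± 1.05 in the knockdown-labelled libraries and 0.21 ± 0.95 in the controls (SD, n = 4 each), and the groups overlapped. The log2 ratio of Cycs to Apaf1 counts was 3.13, 3.50, 2.27 and 5.01 in knockdown-labelled replicates 1 to 4 and 3.88, 3.32, 3.27 and 4.10 in control replicates 1 to 4. Here knockdown-labelled replicates 3 and 4 were the lowest and the highest of all libraries. The log2 ratio of Casp9 to Apaf1 counts, with 0.5 added to each count, overlapped between the groups as well. It was −8.31 ± 1.54 in the knockdown-labelled libraries and −6.74 ± 3.43 in the controls (SD, n = 4 each). Where Casp9 was at 0, this ratio rests on the added 0.5 and so depends on library depth. Such libraries were knockdown-labelled replicates 3 (−9.62) and 4 (−9.66) and control replicate 3 (−11.3).

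**Figure D4:**
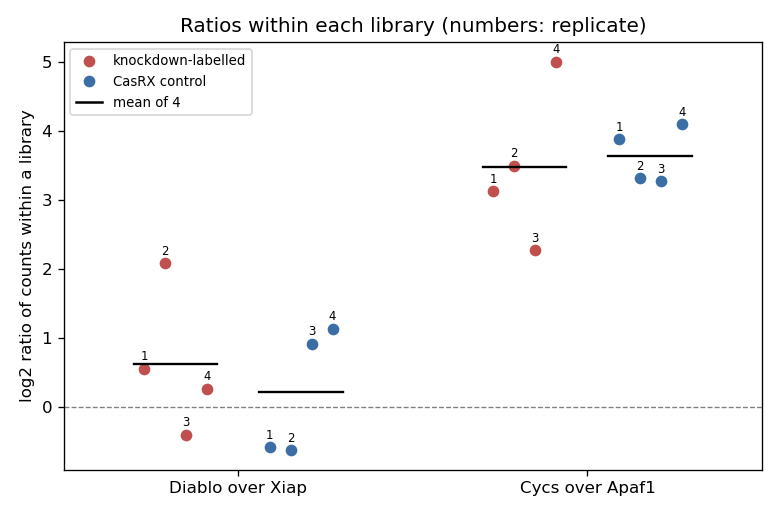
Log2 ratio of counts within each library for Diablo over Xiap and Cycs over Apaf1, knockdown-labelled left of CasRX control; points are libraries with their replicate number, lines are means of 4. The groups overlap in both ratios, and the Cycs ratio ranges from 2.27 to 5.01 in the knockdown-labelled libraries and from 3.27 to 4.10 in the controls.

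Birc5 had the highest and the most even level of the 9 genes. It was at 499.7, 549.9, 432 and 507 CPM in knockdown-labelled replicates 1 to 4 and at 472, 576, 489.9 and 581 CPM in control replicates 1 to 4. The highest of the 8 values was 1.34 times the lowest. The means were 497 ± 48.6 CPM in the knockdown-labelled libraries and 529.7 ± 56.7 CPM in the controls (SD, n = 4 each), a log2 fold change of −0.09 (SE 0.15, adjusted p = 1.0) with an interval from 0.75 to 1.17 times the control level. Its CV of 9.77% in the knockdown-labelled libraries and 10.7% in the controls compares with medians, over the 228 tested genes of like level, of 18.1% in the knockdown-labelled libraries and 19.4% in the controls.

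The genes whose pattern over the 8 libraries was most like each of the 8 were found by the root mean square difference of log2 CPM, each gene centred on its own mean, among 5385 tested genes with at least 10 CPM. For Birc5 this was Arl3 (0.0977), for Cycs Crebbp (0.121), for Apaf1 Ptpn9 (0.20), for Xiap Tgfbr1 (0.205) and for Diablo Eif4e2 (0.213). For the caspases it was Ocln for Casp6 (0.685), Bccip for Casp2 (0.775) and Phyhipl for Casp8 (1.87). These distances follow each gene's own spread, an SD of log2 CPM of 0.147 for Birc5, 2.11 for Casp6, 2.49 for Casp2 and 3.70 for Casp8, and are not to be compared between genes.

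Of the other caspases reported here, Casp1, Casp12 and Casp14 had 0 counts in all 8 libraries, and Casp4 was too low to be tested.

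Among 11 other inhibitor-of-apoptosis (IAP) genes and IAP antagonists, 5 were tested and 0 were called in either direction, with 1 positive and 4 negative log2 fold changes (median −0.29). Birc2, which encodes the ubiquitin ligase cIAP1, had 27, 107, 110 and 130 counts in knockdown-labelled replicates 1 to 4 and 1, 1, 141 and 48 counts in control replicates 1 to 4. These were 4.07 to 13.0 CPM in the knockdown-labelled libraries and 0.0306 to 3.23 CPM in the controls, so that the groups did not overlap, as in 1.44% of all genes tested in this direction. The fitted log2 fold change was 2.99 (SE 1.44, unadjusted p = 0.0654, adjusted p = 1.0). It was 4.45 without control replicate 3 and 1.89 with knockdown-labelled replicate 4 as the only library of its group. Birc6, a very large ubiquitin ligase with the highest CPM of the list, was at 68.6 ± 23.3 CPM in the knockdown-labelled libraries and 70.9 ± 13.4 CPM in the controls (SD, n = 4 each).

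Of 11 genes of the platforms that activate caspase-8 and caspase-2, 7 were tested and 0 were called, with 5 positive and 2 negative log2 fold changes (median 0.03). Casp8ap2, a nuclear protein named for binding caspase-8, had the highest CPM of the list, 177 ± 48.5 CPM in the knockdown-labelled libraries and 156 ± 61.9 CPM in the controls (SD, n = 4 each). Pidd1, the core of the PIDDosome, had the smallest unadjusted p of the list (0.191) on 3, 12, 9 and 1 counts in knockdown-labelled replicates 1 to 4 and 1, 0, 0 and 23 counts in control replicates 1 to 4.

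All 6 genes of cytochrome c maturation, the intermembrane space and Apaf1 control were tested and 0 were called, with 1 positive and 5 negative log2 fold changes (median −0.16). Apip, with the highest CPM of the list, which binds Apaf1 and also acts in methionine salvage, was at 189 ± 58.1 CPM in the knockdown-labelled libraries and 206 ± 66.2 CPM in the controls (SD, n = 4 each). Cyct, the testis form of cytochrome c, had 10, 0, 13 and 0 counts in knockdown-labelled replicates 1 to 4 and 0, 163, 271 and 132 counts in control replicates 1 to 4 (log2 fold change −2.07, SE 2.05, unadjusted p = 0.336). Control replicate 1 was at 0 as were knockdown-labelled replicates 2 and 4.

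Of 10 caspase substrates, 6 were tested and 0 were called, with 5 positive and 1 negative log2 fold changes (median 0.51). Rock1, a kinase that caspase cleavage activates, had both the highest CPM and the smallest p of the list (unadjusted p = 0.431), at 714 ± 89.6 CPM in the knockdown-labelled libraries and 782 ± 121 CPM in the controls (SD, n = 4 each).

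The 4 partners of Birc5 in the chromosomal passenger complex were all tested and 0 were called, with 3 positive and 1 negative log2 fold changes (median 0.21). Aurkc, the Aurora kinase of germ cells, was at 41.1, 24.2, 30.5 and 23.5 CPM in knockdown-labelled replicates 1 to 4 and at 15.4, 17.7, 22.8 and 12.5 CPM in control replicates 1 to 4. The groups did not overlap either (log2 fold change 0.80, SE 0.35, unadjusted p = 0.0453, adjusted p = 1.0). Cdca8 (borealin), the partner with the highest CPM, was at 206 ± 26.3 CPM in the knockdown-labelled libraries and 166 ± 30.2 CPM in the controls (SD, n = 4 each), with 169 CPM in the lowest knockdown-labelled library and 208 CPM in the highest control. Of all genes tested 1.44% did not overlap in the direction of Aurkc, and 2.81% were under 0.05 before adjustment, in either direction. The nearest Aurkc libraries were knockdown-labelled replicate 4 (23.5 CPM) and control replicate 3 (22.8 CPM). With knockdown-labelled replicate 4 as the only library of its group, the Aurkc value was 0.47 and the Cdca8 value 0.03. Aurkb had the largest log2 fold change in size of the 4, and it was negative (−1.22, SE 0.74). Aurkb was at 9.65 ± 6.18 CPM in the knockdown-labelled libraries and 22.6 ± 8.93 CPM in the controls (SD, n = 4 each). Its groups overlapped.

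In GRCm38 the 9 genes, all protein-coding, are on 8 chromosomes. Casp2 (ENSMUSG00000029863.13) lies on chromosome 6 from 42264985 to 42282508, Casp6 (ENSMUSG00000027997.9) on chromosome 3 from 129901425 to 129914103, Casp8 (ENSMUSG00000026029.14) on chromosome 1 from 58795374 to 58847503 and Casp9 (ENSMUSG00000028914.13) on chromosome 4 from 141793612 to 141815976. Apaf1 (ENSMUSG00000019979.12) lies on chromosome 10 from 90989311 to 91082770, Cycs (ENSMUSG00000063694.5) on chromosome 6 from 50562563 to 50566538 and Diablo (ENSMUSG00000029433.16) on chromosome 5 from 123509765 to 123524176. Xiap (ENSMUSG00000025860.15) lies on chromosome X from 42059679 to 42109656 and Birc5 (ENSMUSG00000017716.15) on chromosome 11 from 117849251 to 117855743. Casp6, Cycs, Xiap and Birc5 overlap no other annotated gene.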

How the data were processed

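The deposited table gives the authors' expected counts (RSEM estimates) for each gene in 8 columns, 1 for each library, with no normalisation. Tools named in the submitters' processing notes are RSEM 1.2.28, STAR 2.7.3a and Trim Galore 0.6.10, with the build GRCm38 (mm10). The sources used here do not state the annotation release, the strand setting, filters or duplicate removal. Reads matching several genes are shared out by RSEM's estimation. No molecular identifiers are named in the labels, so counts are reads, and limits derived from a count of 0 cover counting error only. Expected counts were rounded (4.22% of values changed). Genes passed edgeR's filterByExpr (minimum count 10, minimum total 15), which left 13146. Groups were compared with edgeR 4.0.16 (TMM, robust quasi-likelihood fit, no covariate) under R 4.3.3, with Benjamini-Hochberg adjustment over all genes tested and a threshold of 0.05. The procedure was also run on simulated data, but the outcome is not given here. The biological coefficient of variation that edgeR estimated in common for the genes tested was 0.987. The power to call a change at this spread is not stated here. Standard errors come from the estimate and its F statistic. Alternatives used DESeq2 1.42.0 and limma 3.58.1.

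The members and the gene lists were chosen with earlier results of these data known. Beside the 9 genes and Polq, the text names the member of each list with the smallest p and the one with the highest CPM. It also names, for each of the 9 that was tested, the gene most like it in pattern, leaving out predicted genes. Other genes were named after their values were seen, and some genes of the lists are not reported here. Positions and exon lengths are from GENCODE M21 (GRCm38), matched by symbol. Sept4 was matched to Septin4, a RefSeq synonym.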

Additional observations from a re-analysis of the deposited data

Results flagged for a closer look

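In 1 control library, Pidd1 stood apart from the other 3: replicate 4 was at 0.535 CPM, while the others were at 0 to 0.0306 CPM. The cumulus marker Tnfaip6 stood apart in knockdown-labelled replicate 4, at 10.7 CPM, while the other knockdown-labelled libraries were at 0 to 1.16 CPM. Of 52 groups of 4 libraries examined, chance would give such a gap in about 5% if levels followed a normal distribution. Levels near 0 need not follow it, so the share for such genes is not known.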

How the results depend on the processing

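In 13 alternatives and 8 fits that each left out 1 library, 0 of the caspase and apoptosome genes tested were called. All 9 were tested only without the filter on low counts and with knockdown-labelled replicate 4 as the only library of its group. In the other fits Casp9 was filtered out and could not be called. The count of all genes called was 0 to 0 with 1 library left out and 20 with DESeq2. The log2 fold changes of Casp6, Xiap and Birc5 stayed negative in every fit that tested them. Apaf1 turned positive with library totals alone (0.057), upper-quartile scaling (0.020), DESeq2 size factors (0.0085), the filter of 5 CPM in 4 libraries (0.0068), DESeq2 (0.0074) and thinning to the smallest library (0.0059). Casp2 turned positive with limma-voom (1.47), its sample quality weights (1.22) and thinning (0.10). With knockdown-labelled replicate 4 as the only library of its group, Casp8 (0.062), Cycs (0.16) and Polq (0.073) turned positive and Pidd1 negative (−2.06). The causes were not tested.

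With 1 library left out, the ranges were −0.72 to 0.16 for Casp2, −0.31 to 0.23 for Apaf1, −0.38 to 0.16 for Diablo, −1.51 to −0.08 for Casp8, 2.58 to 4.45 for Birc2, −0.18 to 0.16 for Birc6, −0.010 to 0.45 for Casp8ap2 and −0.31 to 0.047 for Apip. Same-numbered libraries did not deviate together (correlations −0.39, −0.09, −0.05 and 0.07). Differently numbered libraries had correlations from −0.29 to 0.40, so this check cannot show whether the numbers pair the libraries. With a replicate block 0 genes were called, and Casp2 was at 0.29, Casp8 at −2.77 and Birc2 at 4.60. Intervals reached 17.8-fold either way for Casp8 and 1.25-fold for Birc5, and the part of depth in this was not tested.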
